A study of Mus musculus with 8 samples.

Results

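Regions of H3K9me2 and H3K9me3, the di- and trimethylated forms of lysine 9 on histone H3, were compared with each other on chromosomes 5, 8, 9, 10, 11, 14, 15, 17 and 19 of wild-type mouse embryonic fibroblasts (MEFs). All rows of the deposited H3K9me2 and H3K9me3 region lists on these 9 chromosomes were taken, which gave 27621 H3K9me2 regions and 23355 H3K9me3 regions. These 50976 regions made up most of the 56227 regions in both lists, and the series held 98931 regions when the H3K9me1 list was added. Chromatin immunoprecipitation and sequencing (ChIP-seq) had been done on 8 samples of wild-type MEFs in 4 groups, namely input DNA, H3K9me1, H3K9me2 and H3K9me3, with 2 replicates each. All groups came from 1 cloned line that the study calls E1c and uses as its wild type. The line carries a floxed Eset1 (Setdb1) gene and a Cre that tamoxifen can activate, and all samples are labelled wild type with growth in standard medium. There was 1 list per mark and no value per replicate, so no SD could be given and no test between marks was possible. The lists do not tell how many reads supported a region. Intervals given below are 95% Wilson intervals that cover counting error only, and neighbouring regions are not independent.

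Methylation of H3K9 is the defining histone mark of heterochromatin, the compact and mostly silent part of the genome. H3K9me2 is laid mainly by the paired enzymes G9a and Glp and covers broad stretches of silent euchromatin and genes. H3K9me3 is laid by the Suv39h enzymes at pericentric satellite repeats and by Setdb1 (Eset) at endogenous retroviruses and other targets, and it is bound by HP1 proteins. An enzyme can carry one lysine through more than one state, and ChIP reads the states from a population of cells. A position listed for both marks can therefore hold both on one nucleosome, on neighbouring nucleosomes or in different cells, which cannot be told apart here.

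Promoters in each state are shown first, because CG content differed between the states below. Each line holds the 250 bases directly before an annotated start of transcription, written 5' to 3' along the gene, with every CG dinucleotide in capitals and no annotated exon inside. The sequences are from GRCm38.p6. Treml4 and Defb40 were examples of the study, Nkx6-1 likewise, and Kit, Edar and Vmn2r81 were among the genes with the largest shares of H3K9me3-only or shared sequence in the gene body and were added after their values were seen.
Treml4 (chr17:48264045-48264294, plus strand, H3K9me2 only): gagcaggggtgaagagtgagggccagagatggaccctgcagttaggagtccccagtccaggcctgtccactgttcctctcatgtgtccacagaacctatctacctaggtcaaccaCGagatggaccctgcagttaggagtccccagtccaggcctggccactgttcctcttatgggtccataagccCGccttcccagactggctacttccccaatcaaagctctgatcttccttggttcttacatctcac
Defb40 (chr8:18978257-18978506, minus strand, H3K9me2 only): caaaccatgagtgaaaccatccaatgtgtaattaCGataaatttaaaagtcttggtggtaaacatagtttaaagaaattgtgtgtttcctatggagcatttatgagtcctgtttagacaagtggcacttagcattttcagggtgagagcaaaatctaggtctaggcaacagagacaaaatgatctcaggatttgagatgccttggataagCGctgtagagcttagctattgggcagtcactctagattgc
Nkx6-1 (chr5:101664997-101665246, minus strand, H3K9me3 only): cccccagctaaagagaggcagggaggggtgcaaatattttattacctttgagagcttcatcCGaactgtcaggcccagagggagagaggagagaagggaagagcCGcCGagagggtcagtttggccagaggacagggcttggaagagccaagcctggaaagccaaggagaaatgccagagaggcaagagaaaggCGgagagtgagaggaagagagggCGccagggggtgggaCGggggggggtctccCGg
Kit (chr5:75574666-75574915, plus strand, H3K9me3 only): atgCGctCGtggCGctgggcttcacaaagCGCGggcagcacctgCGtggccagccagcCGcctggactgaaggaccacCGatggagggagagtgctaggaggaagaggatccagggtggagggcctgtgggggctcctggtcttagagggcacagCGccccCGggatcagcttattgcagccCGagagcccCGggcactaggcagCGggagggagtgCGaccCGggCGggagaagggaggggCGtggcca
Edar (chr10:58675655-58675904, minus strand, both marks): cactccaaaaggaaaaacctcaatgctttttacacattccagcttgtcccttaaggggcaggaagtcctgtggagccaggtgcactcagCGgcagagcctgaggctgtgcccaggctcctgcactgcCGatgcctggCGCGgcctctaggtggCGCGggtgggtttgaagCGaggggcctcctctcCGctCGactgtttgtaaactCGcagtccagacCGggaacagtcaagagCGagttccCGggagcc
Vmn2r81 (chr10:79247442-79247691, plus strand, both marks): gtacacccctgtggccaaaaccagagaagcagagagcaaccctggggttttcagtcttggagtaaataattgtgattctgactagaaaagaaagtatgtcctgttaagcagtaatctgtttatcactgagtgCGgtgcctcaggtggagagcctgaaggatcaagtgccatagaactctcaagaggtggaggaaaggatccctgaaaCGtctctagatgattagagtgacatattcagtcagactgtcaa
The Treml4 and Defb40 windows held 2 CG each, the Nkx6-1 window 7, the Kit window 17, the Edar window 13 and the Vmn2r81 window 2. Borders at which H3K9me2 passed directly into H3K9me3 without a gap or an overlap are shown next, for the pair of widest regions outside exons and promoters. Each line holds an equal stretch of both regions with the H3K9me2 side in capitals and the H3K9me3 side in lower case, and both lie between genes.
Border on chromosome 9 (chr9:25414351-25414650, plus strand): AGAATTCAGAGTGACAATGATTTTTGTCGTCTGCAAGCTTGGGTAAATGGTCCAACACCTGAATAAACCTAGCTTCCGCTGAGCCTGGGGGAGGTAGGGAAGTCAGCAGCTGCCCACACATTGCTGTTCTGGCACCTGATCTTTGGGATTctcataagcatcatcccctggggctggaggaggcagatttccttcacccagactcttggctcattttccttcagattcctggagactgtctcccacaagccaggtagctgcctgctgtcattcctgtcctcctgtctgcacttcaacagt
Border on chromosome 5 (chr5:28988101-28988400, plus strand): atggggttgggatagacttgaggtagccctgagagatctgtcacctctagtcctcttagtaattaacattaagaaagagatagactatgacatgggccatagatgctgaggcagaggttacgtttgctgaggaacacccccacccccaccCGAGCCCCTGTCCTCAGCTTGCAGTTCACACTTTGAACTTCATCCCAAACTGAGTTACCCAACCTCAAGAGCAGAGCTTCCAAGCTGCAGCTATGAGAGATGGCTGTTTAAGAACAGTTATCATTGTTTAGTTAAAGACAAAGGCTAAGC
On chromosome 9 an H3K9me2 region of 12.75 kb met an H3K9me3 region of 6.75 kb, and GC was 49.3% on the H3K9me2 side and 53.3% on the H3K9me3 side of the window. On chromosome 5 an H3K9me3 region of 10.5 kb met an H3K9me2 region of 6 kb, with GC of 45.3% on the H3K9me2 side and 48.7% on the H3K9me3 side. Such direct borders were few, as described below. Over all 499 direct borders, the 750 bp bins on either side had a mean GC of 41.4% (H3K9me2 side) and 41.4% (H3K9me3 side). The difference of H3K9me3 side minus H3K9me2 side was -0.0043 percentage points (SD 5.35, n = 499), and the H3K9me3 side had the higher GC at 235 borders. The soft-masked share, which is the share of bases in annotated repeats, was 34.7% and 37.4%, with a difference of 2.68 percentage points (SD 25.04) and the higher share on the H3K9me3 side at 286 of 499 borders.

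The 9 chromosomes were divided into bins of 750 bp, the grid of both lists, and each bin was classed as shared, H3K9me2 only, H3K9me3 only or neither. Together both marks covered 334.7 Mb. Of this, 170.4 Mb (50.9%) was shared, 69.1 Mb (20.7%) had H3K9me2 only and 95.1 Mb (28.4%) had H3K9me3 only, while 709 Mb had neither. Shared sequence was 71.1% of the H3K9me2 length and 64.2% of the H3K9me3 length. The shared share of marked sequence ranged from 21.5% on chromosome 11 to 72.0% on chromosome 10, with a median of 34.4%. H3K9me3-only sequence exceeded H3K9me2-only sequence on 7 of 9 chromosomes, and on chromosomes 10 and 15 it was the reverse.

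**Figure D1:**
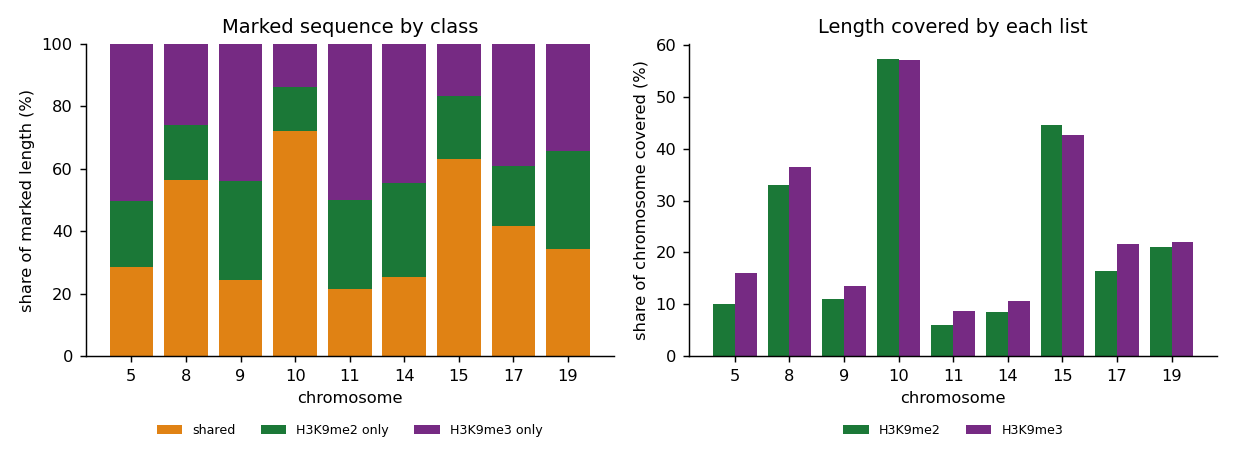
Left, share of marked length (%) that was shared, H3K9me2 only or H3K9me3 only on each chromosome; right, share of each chromosome (%) covered by each list. Shared sequence rose to 72.0% of marked length on chromosome 10, where H3K9me2 covered 57.3% and H3K9me3 57.1% of the chromosome, and was 21.5% on chromosome 11.

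Sharing followed the cover of the chromosome. On chromosome 10, 83.6% of the H3K9me2 length carried H3K9me3, and H3K9me3 covered 57.1% of the whole chromosome, a ratio of 1.46. On chromosome 15 the values were 75.7% and 42.7%, a ratio of 1.77. On chromosome 11, 42.8% of the H3K9me2 length carried H3K9me3 against a cover of 8.63%, a ratio of 4.96. The ratio was above 1 on every one of the 9 chromosomes, with the lowest values on the most covered chromosomes. Shared length cannot exceed the whole H3K9me2 length, so the highest possible ratio falls as cover rises. The low ratios on the most covered chromosomes are thus partly fixed by construction. Without chromosomes 10 and 15, 72.6 Mb of shared, 45.6 Mb of H3K9me2-only and 73.8 Mb of H3K9me3-only sequence remained.

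Nesting asked whether a whole region of one mark lay within a single region of the other. Of the H3K9me2 regions, 9566 (34.6%, interval 34.1 to 35.2) were nested in an H3K9me3 region, 711 of them with identical ends. A further 14.1% contained 1 or more whole H3K9me3 regions, 10.7% were staggered with 1 H3K9me3 region, 4.34% had a mixed pattern and 36.3% were apart from H3K9me3. Of the H3K9me3 regions, 6845 (29.3%, interval 28.7 to 29.9) were nested in an H3K9me2 region, 17.1% contained whole H3K9me2 regions, 10.2% were staggered, 6.94% were mixed and 36.4% were apart. The shares apart were close to each other over the pooled chromosomes only. By chromosome they ranged from 21.6% to 56.8% for H3K9me2 and from 17.5% to 62.0% for H3K9me3, and H3K9me3 had the higher share apart on 5 of 9. H3K9me2 was more often the inner mark in the pooled lists. H3K9me2 was nested more often than H3K9me3 on 6 of 9 chromosomes, and less often on chromosomes 10, 15 and 19. The order also turned when regions of 1 list up to 5 kb apart were joined, with 28.6% of H3K9me2 and 29.8% of H3K9me3 regions nested. For comparison, 29.5% of H3K9me2 regions and 24.4% of H3K9me3 regions were nested in an H3K9me1 region.

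The relation depended on width. Regions of H3K9me2 from 750 bp to 2.25 kb were apart from H3K9me3 in 56.5% of cases, those of 6.75 to 15 kb in 20.7% and those over 30 kb in 0.148%. H3K9me3 regions were apart from H3K9me2 in 55.2%, 27.8% and 5.11% of cases in the same classes. Wide H3K9me2 without H3K9me3 was thus nearly absent, while wide H3K9me3 without H3K9me2 was not. The widest H3K9me2 region apart from H3K9me3 measured 34.5 kb, and the widest H3K9me3 region apart from H3K9me2 measured 200.25 kb. In the class over 30 kb, 39.3% of H3K9me2 regions lay whole inside an H3K9me3 region and 17.9% of H3K9me3 regions lay whole inside an H3K9me2 region. The other mark covered 92.6% of the length of the H3K9me2 regions and 75.7% of the length of the H3K9me3 regions in that class. A wide region has more room to meet a region of the other list, so the fall with width is not a test of the marks.

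**Figure D2:**
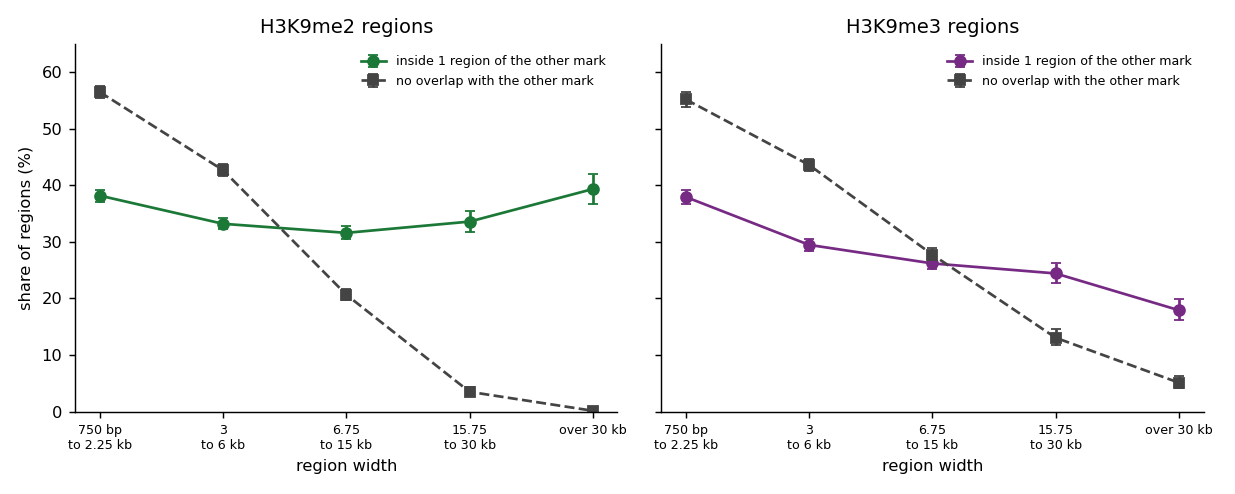
Share of regions (%) that lay inside 1 region of the other mark (solid) or did not overlap it (dashed), by region width, for H3K9me2 (left) and H3K9me3 (right), with 95% Wilson intervals as bars. Regions apart fell to 0.148% of H3K9me2 and 5.11% of H3K9me3 over 30 kb, and the nested share of H3K9me3 fell to 17.9% while that of H3K9me2 was 39.3%.

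Overlapping regions formed 12240 groups. Of these, 8259 (67.5%) paired 1 H3K9me2 region with 1 H3K9me3 region. In 2068 groups (16.9%) 1 H3K9me3 region joined 2 or more H3K9me2 regions, which took up 6185 H3K9me2 regions. In 1264 groups (10.3%) 1 H3K9me2 region joined 2 or more H3K9me3 regions, which took up 2940 H3K9me3 regions, and 649 groups (5.30%) had several of both. H3K9me3 was the joining mark more often. The H3K9me3 region with the most H3K9me2 regions inside was 575.25 kb wide and spanned 125590501 to 126165750 of chromosome 5. It overlapped part of Tmem132b, which codes for a transmembrane protein and had no mark at the 5' end of the gene, and held 33 H3K9me2 regions over 59.7% of its length. The next were a region of 388.5 kb on chromosome 15 from 87147001 to 87535500 with 28 H3K9me2 regions, and a region of 645 kb from 86499751 to 87144750 with 27, which covered 74.7% and 91.0% of it. Both lay mainly between genes.

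Ends were compared in the 8259 pairs of 1 region with 1 region. Both ends coincided in 711 pairs (8.61%) and 1 end coincided in 2947 (35.7%). H3K9me3 was longer at both ends in 17.4% of pairs, H3K9me2 was longer at both ends in 17.9%, and each was longer at 1 end in 20.4%. Of the 16518 ends, 26.4% lay on the same bin border, 51.9% within 1 bin and 65.7% within 2 bins. H3K9me3 reached further at 35.7% of ends (interval 35.003 to 36.46) and H3K9me2 at 37.8% (interval 37.1 to 38.6), and in both cases the median distance was 1.5 kb. The median width was 6 kb for both marks in these pairs. The median offset in pairs was 0, but the pairs were not fully symmetric. H3K9me2 was the wider region in 45.7% of pairs (interval 44.7 to 46.8) and H3K9me3 in 40.9% (interval 39.8 to 41.9). At offsets over 15 kb the order turned, with H3K9me2 reaching further at 0.27% of ends and H3K9me3 at 0.80%. Over all regions, the median width was 4.5 kb for H3K9me2 and 5.25 kb for H3K9me3.

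**Figure D3:**
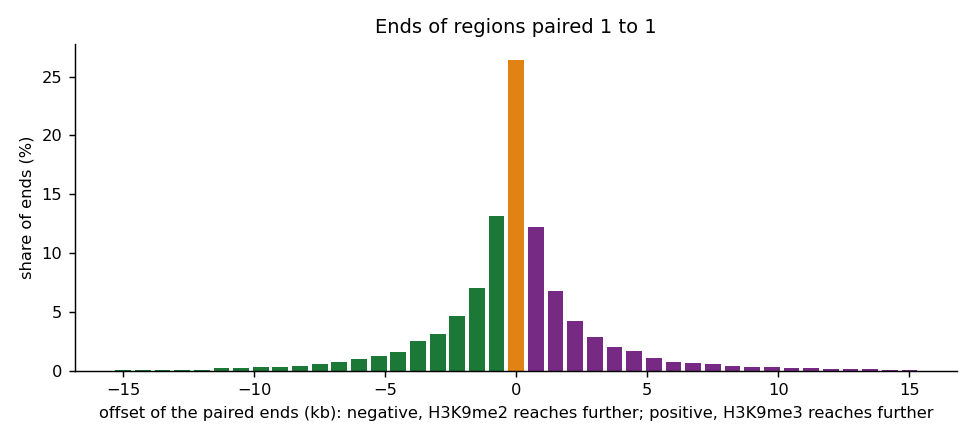
Offset (kb) between the ends of H3K9me2 and H3K9me3 in 8259 pairs of 1 region with 1 region, as a share of 16518 ends (%). The bar at 0 held 26.4% of ends, and the sides on which H3K9me2 (negative) and H3K9me3 (positive) reached further held 37.8% and 35.7%. These shares include offsets over 15 kb, which are not drawn.

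Over all regions, 11.99% of H3K9me2 ends lay on an H3K9me3 end of the same side, beside 1.68% of all bin borders. The share of H3K9me3 ends on an H3K9me2 end was 14.2%, beside 1.98% of bin borders. Within 2 bins the shares were 30.2% and 35.7%, beside 8.30% and 9.77% of bin borders. By chromosome, the share of H3K9me2 ends on H3K9me3 ends ranged from 4.87% on chromosome 11 to 18.6% on chromosome 10. When nearby regions of 1 list were joined, the shares of coinciding ends were 7.09% and 7.21%.

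The other mark was then followed across regions of at least 15 kb. In 3897 H3K9me2 regions, H3K9me3 covered 70.1% of the first and last of 20 equal parts and 83.5% of the middle 10 parts. Directly outside, in the first 750 bp, the H3K9me3 cover was 44.8%, and 15 kb away it was 65.7%. In 4166 H3K9me3 regions, H3K9me2 covered 59.9% of the outer parts, 69.7% of the middle 10 parts, 33.3% of the first 750 bp outside and 56.0% at 15 kb. The flanks lay above the 25.4% (H3K9me3) and 22.9% (H3K9me2) that the marks covered over all bins of the 9 chromosomes. These shares were not weighted by the chromosomes on which the regions lay, and chromosomes 10 and 15 were far more covered than the rest. Without chromosomes 10 and 15, the first 750 bp outside had 44.5% (H3K9me3) and 27.8% (H3K9me2), beside 18.1% and 14.6% of all bins, also unweighted. The cover next to an end was thus lower than on either side of it. Part of this form is fixed by construction, since the first bin outside lacks the region's own mark by definition, bins 15 kb away can lie in the next region of that mark, and the lists overlap. The same form was seen without chromosomes 10 and 15, with 76.4%, 44.5% and 58.3% for H3K9me3 in the middle, directly outside and 15 kb from H3K9me2 regions. H3K9me1 followed it too, with 60.8%, 35.2% and 54.2% at these places of H3K9me2 regions. The soft-masked share was 38.9% in the first 750 bp outside H3K9me2 regions, 32.3% in the first 750 bp inside and 31.6% at 15 kb. For H3K9me3 regions it was 38.4%, 34.0% and 32.7%. The part of repeats in the lower cover next to ends was not tested.

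**Figure D4:**
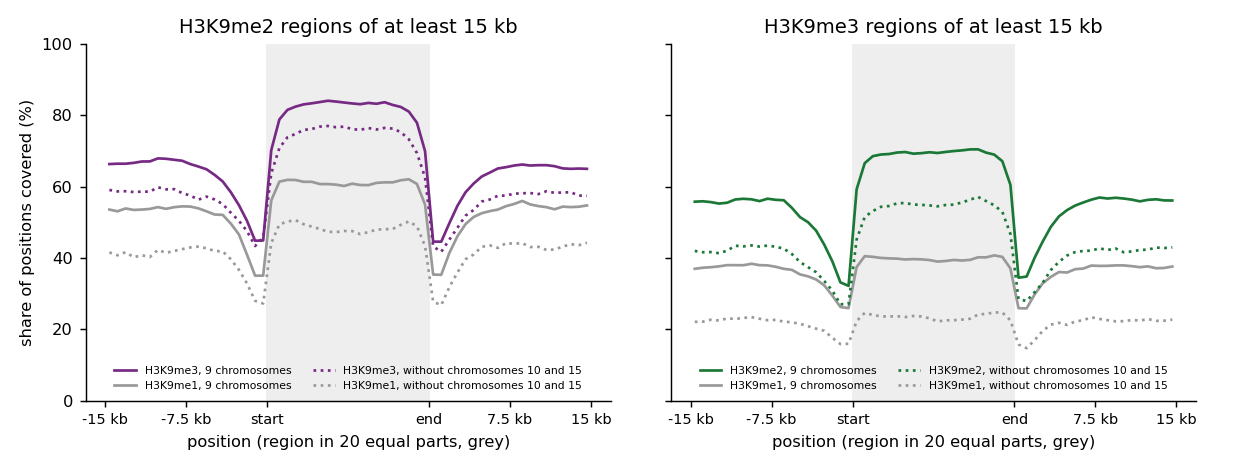
Share of positions (%) covered by the other mark (coloured) and by H3K9me1 (grey) across H3K9me2 regions (left, n = 3897) and H3K9me3 regions (right, n = 4166) of at least 15 kb, drawn as 20 equal parts with 15 kb on either side; dotted lines leave out chromosomes 10 and 15. H3K9me3 covered 83.5% of the middle of H3K9me2 regions and 44.8% of the first 750 bp outside, and rose again to 65.7% at 15 kb.

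Adjacency was rare among regions that did not overlap. Of 10019 H3K9me2 regions apart from H3K9me3, 310 (3.09%) touched an H3K9me3 region and 792 (7.90%, interval 7.39 to 8.45) lay within 1 bin of one, beside 6.19% of unmarked bins. Of 8512 H3K9me3 regions apart from H3K9me2, 247 (2.90%) touched one and 572 (6.72%, interval 6.21 to 7.27) lay within 1 bin, beside 6.63% of unmarked bins. The median gap was 10.5 kb for H3K9me2 and 19.5 kb for H3K9me3, against 43.5 kb and 52.5 kb from unmarked bins to the same mark. Over the pooled chromosomes, regions apart were thus nearer to the other mark than unmarked bins were, but seldom against it. The shares and gaps for unmarked bins were not weighted by the chromosomes on which regions apart lay. The share of H3K9me2 regions apart within 1 bin ran from 2.57% on chromosome 11 to 12.5% on chromosome 10. For H3K9me3 it ran from 1.53% to 13.1% on the same chromosomes. The part of chromosome cover in the nearness was not tested. Among regions of at least 5 kb, 4.94% of H3K9me2 and 2.60% of H3K9me3 regions apart lay within 1 bin of the other mark. An unbroken run of shared bins had H3K9me3-only bins on both sides in 30.6% of 20205 runs, H3K9me2-only bins on both sides in 17.9%, 1 of each in 22.3% and unmarked bins on both sides in 3.52%. Runs of H3K9me3 only lay between shared runs in 23.6% of 22684 cases, and runs of H3K9me2 only in 12.01% of 21669. H3K9me3-only sequence thus linked shared runs more often than H3K9me2-only sequence did.

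The longest runs of each class differed in kind. The longest shared run lay on chromosome 15 from 73934251 to 74339250, measured 405 kb and was 97.01% intergenic. The next lay on chromosome 15 from 83826001 to 84053250 (227.25 kb, 86.0% intronic, in Efcab6 and Mpped1) and on chromosome 10 from 79117501 to 79321500 (204 kb, 61.0% soft-masked), which held the vomeronasal receptor genes Vmn2r80 and Vmn2r81. The longest runs of H3K9me2 only were much shorter. They lay on chromosome 17 from 21103501 to 21140250 (36.75 kb, 93.1% intergenic, 20.4% covered by H3K9me1), on chromosome 9 from 45600751 to 45636750 (36 kb, in introns of Dscaml1, which codes for a neuronal adhesion molecule) and on chromosome 14 from 31278751 to 31314000 (35.25 kb, in Dnah1, which codes for an axonemal dynein). H3K9me1 covered 95.8% and 100% of the runs in Dscaml1 and Dnah1. The longest runs of H3K9me3 only lay on chromosome 5 from 128019751 to 128319000 (299.25 kb, in Tmem132d) and from 127275751 to 127571250 (295.5 kb, in Tmem132c), and on chromosome 17 from 48805501 to 49051500 (246 kb, over Lrfn2, which codes for a synaptic adhesion protein). H3K9me1 covered none of these H3K9me3-only runs.

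H3K9me1, a list that played no part in the classes, set H3K9me3-only sequence apart from the other classes. H3K9me1 covered 54.8% of H3K9me2-only bases, 56.0% of shared bases, 7.59% of H3K9me3-only bases and 22.3% of unmarked bases. H3K9me2-only sequence lay above H3K9me3-only sequence on 9 of 9 chromosomes, by 27.9 to 56.4 percentage points with a median of 43.4. H3K9me3-only sequence also lay below unmarked sequence on 9 of 9 chromosomes, by 7.12 to 27.0 percentage points. Within chromosomes, shared sequence had less H3K9me1 than H3K9me2-only sequence on 8 of 9, the exception being chromosome 17. Without chromosomes 10 and 15, the pooled H3K9me1 cover of shared minus H3K9me2-only sequence was -3.91 percentage points instead of 1.15.

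Base composition also differed. Soft-masked repeats made up 40.3% of H3K9me3-only sequence, 32.8% of shared sequence, 28.1% of H3K9me2-only sequence and 32.3% of unmarked sequence. The order H3K9me3 only, shared and H3K9me2 only held on 9 of 9 chromosomes, and the difference of H3K9me3 only minus H3K9me2 only was 7.71 to 18.1 percentage points with a median of 12.4. GC was 43.8% in H3K9me2-only, 43.0% in shared, 42.4% in H3K9me3-only and 42.02% in unmarked sequence, and was higher in H3K9me2-only than in H3K9me3-only sequence on 9 of 9 chromosomes. GC was also higher in shared than in H3K9me3-only sequence, and higher in shared and in H3K9me2-only than in unmarked sequence, on 9 of 9. The rest of the pooled order did not hold throughout. GC was higher in shared than in H3K9me2-only sequence on 5 of 9 chromosomes and higher in H3K9me3-only than in unmarked sequence on 5 of 9. CpG density was 8.68 per kb in H3K9me2-only, 8.91 in shared, 9.26 in H3K9me3-only and 8.93 in unmarked sequence. It was higher in shared than in H3K9me2-only sequence on 9 of 9 chromosomes, higher in H3K9me3-only than in H3K9me2-only sequence on 6 and higher in H3K9me3-only than in shared sequence on 3. Reads from repeats can be hard to place, and the part of this in the lists was not tested.

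**Figure D5:**
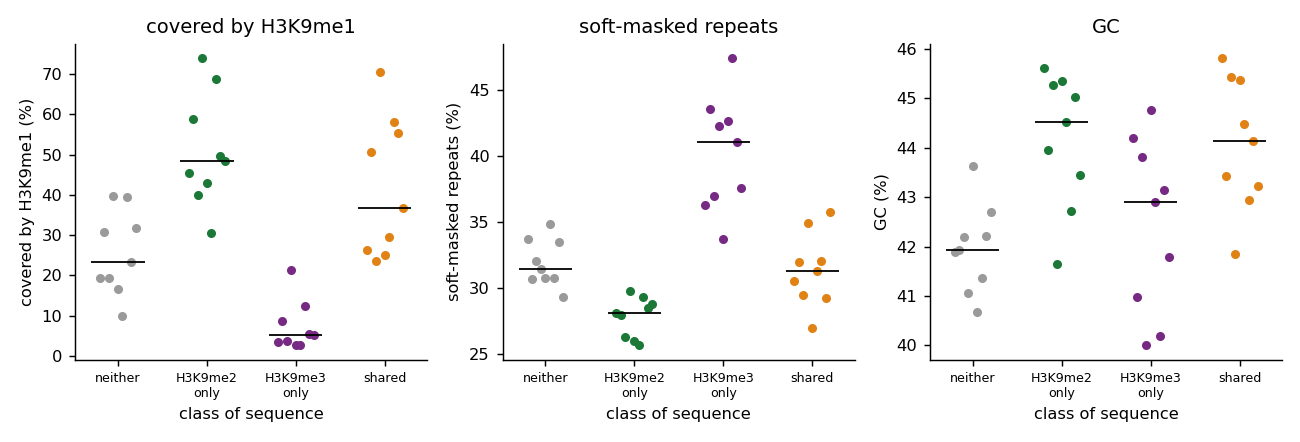
Share covered by H3K9me1, share of soft-masked repeats and GC (all in %) for each class of sequence; each point is 1 of the 9 chromosomes and the line is their median. H3K9me3-only sequence had the least H3K9me1 and the most repeats, with medians of 5.06% and 41.1%, against 48.4% and 28.1% in H3K9me2-only sequence.

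In gene parts, each base was placed in the first of promoter (1 kb either side of any start site), 5' UTR, 3' UTR, exon, intron or intergenic sequence. Promoters made up 5.61% of H3K9me2-only, 4.001% of H3K9me3-only and 4.52% of shared sequence, against 6.61% of all bases, so each class held less promoter sequence than the chromosomes as a whole. H3K9me2 only exceeded H3K9me3 only in promoter, 5' UTR and other exon share on 9 of 9 chromosomes and in 3' UTR share on 8. Exons made up 2.06% of H3K9me2-only and 1.38% of H3K9me3-only sequence. Introns made up 41.5% of H3K9me2-only, 37.4% of H3K9me3-only and 39.8% of shared sequence. Intergenic shares were 49.7%, 56.5% and 53.0%, and H3K9me3 only was the more intergenic class on 7 of 9 chromosomes. Without chromosomes 10 and 15, the intron share of H3K9me2-only minus H3K9me3-only sequence was 1.85 percentage points instead of 4.08. With protein-coding genes alone, the promoter difference was 1.01 instead of 1.60 percentage points. Shared sequence lay between the other classes in promoter, exon, intron and intergenic share.

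Along 6196 protein-coding genes of at least 10 kb, cover of each class was lowest around the start of the gene. The lowest cover of H3K9me2 only (3.70%) and of shared sequence (7.73%) lay in the last 1 kb before the gene. For H3K9me3 only it lay in the first part of the body. In the first of 20 equal parts, H3K9me2 only covered 4.18%, H3K9me3 only 3.13% and shared sequence 8.44% of positions, against 5.97%, 4.10% and 10.7% in the middle 10 parts and 7.13%, 4.28% and 12.3% in the 20 kb upstream. In 1138 of these genes both H3K9me2-only and H3K9me3-only sequence lay in the body. H3K9me2-only sequence was nearer the 5' end in 576 of them (50.6%, interval 47.7 to 53.5), with 38.1% to 64.4% by chromosome, so no order along genes was detectable. Among genes of at least 20 kb with at least 20% of each class, the position differed most in Spdye4b and Rsph1, where H3K9me2-only sequence lay at a mean position of 0.295 and 0.308 of the gene from the 5' end and H3K9me3-only sequence at 0.845 and 0.828. The order was the opposite in Sec31b, which codes for a coat protein of transport vesicles, with 0.713 for H3K9me2-only and 0.194 for H3K9me3-only sequence. In Kcnj5, a potassium channel gene, the mean positions were 0.189 and 0.640, and in Oosp1, an oocyte gene, they were 0.213 and 0.545.

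Gene bodies were more often dominated by both marks than by one. Among 4120 protein-coding genes of at least 20 kb, leaving out Gm and Rik symbols, 408 had more than 50% of the body shared, 75 had more than 50% H3K9me3 only and 44 had more than 50% H3K9me2 only. Map7 (a microtubule-binding protein), Slc35f3 (a transporter), Edar (the ectodysplasin receptor), Nox3 (an oxidase of the inner ear) and Vmn2r81 were 100% shared, and H3K9me1 covered at least 98.4% of each. Kit, the stem cell factor receptor, and Myh1, a skeletal muscle myosin, were 100% H3K9me3 only. Tmem132c (99.3%), Glt1d1 (99.0%) and Tmem132d (98.7%) followed, and these neighbours on chromosome 5 and the other genes named with them had no H3K9me1. H3K9me2-only shares were lower, with 86.9% in Kcnj1 (a renal potassium channel), 83.6% in Oxgr1 (a receptor for oxoglutarate), 74.0% in Antxrl, 72.4% in Spatc1 and 70.1% in Cd6, a surface receptor of T cells. H3K9me1 covered 0% of Kcnj1, 19.7% of Oxgr1, 35.5% of Antxrl, 100% of Spatc1 and 94.5% of Cd6. These values chose the genes and are a description.

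At promoters, 1847 of 22392 annotated genes had H3K9me2 only, 1595 had H3K9me3 only and 4059 had both, which is 8.25%, 7.12% and 18.1% of all genes. The genes with both were 68.7% of those with H3K9me2 and 71.8% of those with H3K9me3, and in 97.9% of them both marks lay in the same bin. Among 9632 protein-coding genes the counts were 701, 460 and 1478, and without chromosomes 10 and 15 there were 1877 genes with both. The order of H3K9me2 only above H3K9me3 only turned when regions under 5 kb were left out, with 1364 and 1461 genes, and when all main chromosomes were taken, with 2050 and 2332. Any start of any annotated gene counted here, which gave 5906 genes with H3K9me2 and 5654 with H3K9me3 on the 9 chromosomes. The study, also with 1 kb either side of a start, reported fewer genes for each of these marks over the whole genome. Why its counts differ from these was not tested. CG content was lower at marked promoters. In the 250 bases before the RefSeq start (GRCm38.p6) of 14308 genes with a window, the median number of CG, searched as the letters CG, was 2 with H3K9me2 only, 3 with both, 4 with H3K9me3 only and 9 with no mark. Windows with 10 or more CG made up 6.17% of H3K9me2-only, 10.3% of both, 26.5% of H3K9me3-only and 48.3% of unmarked promoters, and 40.4% of all windows. The Treml4 window lay at the median of its state, whereas those of Kit, with 17 CG, and Edar, with 13, lay above the median of theirs.

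Example genes and control loci of the study fell in different states. Treml4 (a myeloid receptor), Defb40 (a beta-defensin), Olfr1431 (an olfactory receptor) and Tlr3 (a sensor of double-stranded RNA) had H3K9me2 only, at Olfr1431 not at the 5' end of the gene, and Nkx6-1, a homeobox regulator of pancreas and spinal cord, had H3K9me3 only. At Cacna1i, which codes for a T-type calcium channel, the marks lay at different starts. H3K9me3 lay at the starts at 80287238 and 80287534 of chromosome 15 and H3K9me2 at the start at 80389328, and the gene body was 52.7% H3K9me2 only and 19.4% shared. Tcap, Bbs9, Pou5f1, Cdkn1a, Cdk1 and Actb had neither mark at any start. The study showed Tcap, Bbs9 and Cacna1i as examples of H3K9me1, and Tlr3, Cdkn1a and Cdk1 as examples of expression and accessibility. Among control loci for its antibodies, the Pou5f1 (Oct4) promoter was a positive and the Actb promoter a negative.

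Shares of gene lists are given beside the share among all genes of the same chromosomes, weighted by the list's own spread over them, since chromosomes 10 and 15 were far more covered than the rest. In multigene families, reads can be shared between copies, so calls at single members are uncertain. Defensins, antimicrobial peptides of epithelia, come first. Of 68 genes, 27 had H3K9me3 only (39.7%, against 9.06% for their chromosomes), 26 had both (38.2% against 25.8%) and 4 had H3K9me2 only (5.88% against 8.88%). The leading state changed among the 51 protein-coding members, of which 16 had H3K9me3 only, 23 had both and 4 had H3K9me2 only. On chromosome 8 lay 63 of the 68 genes. Defb43, Defb4, Defb7 and Defb3 were H3K9me3 only, whereas Defb40, the study's example, was one of the 4. Variable segments of the T cell receptor alpha locus had H3K9me3 only at 38 of 128 (29.7% against 10.2%). H3K9me2 only was at 19 (14.8% against 8.69%) and both at 15 (11.7% against 8.18%). Of 8 Nkx homeobox genes, 4 had H3K9me3 only (50% against 8.69%), namely Nkx6-1, Nkx2-3, Nkx1-1 and Nkx3-2. Of 6 Tmem132 entries, 4 had H3K9me3 only (66.7% against 7.24%) and Tmem132b had both, and 1 of the 4, Tmem132cos, overlaps Tmem132c on the opposite strand.

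The next lists lay above the share of their chromosomes in H3K9me2 only. At olfactory receptors, the share with both marks was further above that of their chromosomes. H2 genes code for antigen-presenting and related proteins of the major histocompatibility complex. They had H3K9me2 only at 11 of 45 (24.4% against 7.72%), with H2-M5, H2-Q2, H2-Bl and H2-M10.4 among them. H3K9me3 only was at 5 (11.1% against 8.49%) and both at 6 (13.3% against 10.8%). Of 21 genes of the Ly6, Lypd and Lynx family of surface proteins, 6 had H3K9me2 only (28.6% against 10.2%), 6 had both (28.6% against 27.3%) and 0 had H3K9me3 only (against 5.25%), with Ly6h, Lynx1, Ly6g6f and Ly6i in the first state. Of 18 matrix metalloproteinase genes, 5 had H3K9me2 only (27.8% against 8.46%), of which Mmp20, Mmp12 and Mmp1b lay in 1 cluster on chromosome 9. Among the 18 genes, 1 had H3K9me3 only (5.56% against 7.13%) and 3 had both (16.7% against 14.7%). Olfactory receptors had H3K9me2 only at 74 of 569 (13.0% against 8.61%), H3K9me3 only at 44 (7.73% against 6.92%) and both at 141 (24.8% against 15.3%). Among 10 fibroblast genes, the proteoglycan genes Dcn and Lum and the collagen gene Col6a1 had H3K9me2 only (30% against 8.08%). All of these lie on chromosome 10. The list had 0 genes with H3K9me3 only (against 6.11%) and 0 with both marks (against 26.5%). At the 5' end of the gene alone, Lum was the only marked gene of the 10.

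Both marks together were the most frequent marked state in a further set. Cytochrome P450 genes had both at 38 of 75 (50.7% against 19.1%), among them Cyp19a1 and Cyp2c29. H3K9me2 only, at 8 (10.7% against 9.93%), and H3K9me3 only, at 5 (6.67% against 7.14%), lay near the shares of their chromosomes. Keratin and keratin-associated genes had both at 24 of 81 (29.6% against 17.2%), with Krt79, Krt77, Krt90 and Krt75. H3K9me2 only, at 3 (3.70% against 7.48%), and H3K9me3 only, at 0 (against 4.12%), lay below the shares of their chromosomes. Cadherin and protocadherin genes had both at 9 of 23 (39.1% against 25.5%), with Pcdh15, Cdh13, Cdh23 and Cdh6, of which Cdh13 had no mark at the 5' end of the gene. H3K9me3 only, at 4 (17.4% against 7.75%), also lay above the share of their chromosomes. H3K9me2 only was at 2 (8.70% against 9.40%). Of 5 Cacna1 genes 4 had both (against 17.7%), but at the 5' end of the gene alone 0 of 5 had both. There Cacna1a and Cacna1h had H3K9me2 only, Cacna1i had H3K9me3 only, and Cacna1d and Cacna1g had no mark. Vomeronasal receptors had both at 12 of 66 (18.2% against 15.6%), so that the share with both was near that of their chromosomes. H3K9me2 only, at 2 (3.03% against 7.57%), and H3K9me3 only, at 3 (4.55% against 8.05%), lay below it.

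The remaining lists ranged from no marked promoter to shares near those of their chromosomes or above. Zinc finger Zfp genes are a class of repressors of which some recruit Setdb1. They had H3K9me3 only at 12 of 161 (7.45% against 7.24%). Both marks, at 16 (9.94% against 15.6%), and H3K9me2 only, at 4 (2.48% against 7.97%), lay below the shares of their chromosomes. Chemokine genes had H3K9me2 only at 2 of 26 (7.69% against 5.81%), H3K9me3 only at 1 (3.85% against 6.12%) and both at 1 (3.85% against 7.85%). Of 19 Hox genes only Hoxc9 was marked, with H3K9me3 only (5.26% against 4.001%). The Hox shares of 0 for H3K9me2 only and both stood against 8.34% and 20.1%. Of 9 germline genes, Piwil1 and Dazl had H3K9me3 only (22.2% against 7.40%) and 2, Mov10l1 and Tdrd1, had both (22.2% against 17.02%), Tdrd1 not at the 5' end of the gene. Ribosomal protein entries, most of them pseudogenes, had H3K9me2 only at 14 of 160 (8.75% against 8.11%), H3K9me3 only at 12 (7.5% against 7.02%) and both at 24 (15% against 17.4%), whereas of the 51 protein-coding members 2 had H3K9me2 only and 0 had H3K9me3. None of 26 proteasome genes and none of 12 genes for H3K9 enzymes and readers, such as Ehmt2 and Setdb2, had either mark. The chromosomes of the proteasome genes had 6.70% H3K9me2 only, 6.87% H3K9me3 only and 7.80% both. For the enzymes and readers these shares were 7.82%, 7.21% and 14.6%.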

How the data were processed

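ChIP-seq was done on wild-type MEFs for H3K9me1, H3K9me2, H3K9me3 and input. According to the methods and processing notes, the authors aligned reads to mm10 (GRCm38) with bwa 0.7.1 and called regions with histoneHMM, which assigns bins to enriched or unenriched states with a hidden Markov model. The version, the threshold, the treatment of repeats and the way replicates and input entered the call are not given in the sources used here. The deposited files hold coordinates of regions and no score, so differences in calling between the marks cannot be told apart from differences in the marks.

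Positions were read as 1-based with inclusive ends on a 750 bp grid. Nesting meant a whole region inside 1 region of the other list. Adjoining meant a gap of at most 1 bin. GENCODE M21 gave genes, with promoters of 1 kb either side of any start, and GRCm38.p6 gave sequence and soft-masked repeats. Genes to name were the study's examples and controls, the 5 with the largest body share per class or difference in position, and up to 4 per list. The chromosomes, regions, genes and lists were chosen with earlier results of these data known. The functions were tested on simulated data with known relations. Some regions and genes are not reported here. Alternatives were minimum width, joining, chromosomes, tolerances, promoter windows and gene sets. Python 3.11.15, NumPy 2.4.6 and Matplotlib 3.10.9 were used.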

Additional observations from a re-analysis of the deposited data

How the results depend on the processing

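No paired analysis was possible because each mark has 1 list for its 2 replicates, and for the same reason no replicate could be left out. Of 116 alternative values for 22 results, 56 stayed within the interval or within 1.5 times, 58 moved and 2 reversed. Reversal was counted only for values that are differences, so a turned order between 2 shares or 2 counts is not among these. The order of nested shares turned with joined regions. The order of promoter counts, H3K9me2 only above H3K9me3 only, turned with regions of at least 5 kb and on all main chromosomes. Without chromosomes 10 and 15, shared sequence was 72.6 Mb and H3K9me2-only sequence 45.6 Mb, nested shares were 30.5% (H3K9me2) and 21.6% (H3K9me3), coinciding ends 9.07% and 10.1%, adjoining regions 6.52% and 5.18%, and 1877 promoters had both marks. The promoter difference, H3K9me2 only minus H3K9me3 only, was then 2.05 percentage points and the soft-masked difference, H3K9me3 only minus H3K9me2 only, 11.7. With regions of at least 5 kb, nested shares were 33.0% and 25.1%, coinciding ends 13.5% and 13.7%, adjoining regions 4.94% and 2.60% and the soft-masked difference 11.01. With regions joined up to 5 kb apart, nested shares were 28.6% and 29.8%, coinciding ends 7.09% and 7.21%, adjoining regions 4.26% and 4.18% and the promoter difference 1.90. On all main chromosomes, H3K9me3 regions were nested in 25.8%, had 12.6% of ends coinciding and adjoined in 5.05% of cases, and the soft-masked difference was 13.8. With 90% cover counted as nested, the shares were 39.3% and 35.5%. Ends within 1 bin made up 23.7% and 28.0%, and within 2 bins 30.2% and 35.7%. A gap of 0 gave 3.09% and 2.90% adjoining, and a gap up to 5 kb 31.8% and 24.1%. With protein-coding genes, the promoter difference was 1.01, and 701, 460 and 1478 genes had H3K9me2 only, H3K9me3 only and both. The H3K9me1 cover of shared minus H3K9me2-only sequence, 1.15 percentage points, reversed to -0.38 with joined regions and -3.91 without chromosomes 10 and 15. Fewer chromosomes, genes or regions give smaller counts by construction, and the cause of the other changes was not tested. Without read counts or scores, no limit from depth and no stricter calling threshold could be given, and region width stands in for it.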
